A study of Rattus norvegicus with 10 samples.

Results

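The cytosolic ribosomal protein genes are the genes for the proteins that, together with the ribosomal RNAs, build the small and the large subunit of the ribosome in the cytoplasm. Their messenger RNA was measured in rat hippocampus 3 months after traumatic brain injury (TBI) or sham surgery. Members were chosen by name: symbols starting with Rpl or Rps and a digit, together with Rplp0, Rplp1, Rplp2 and Rpsa, without the S6 kinases and without names ending in -ps. Of 99 symbols with such a name, 7 were S6 kinases and 2 ended in -ps. The other 90 symbols had 91 rows in the count table, and the row with the most counts was kept for Rpl35a, the symbol with more than one. A total of at least 44 counts over the 10 rats was required, which 87 genes met, among 22431 rows that were tested. Rpl37al2 lay just inside this limit with 59 counts, and Rps12l4 just outside with 34, together with Rpl39l1 with 18 and Rpl27l2 with 12. No row was found under the names Rpl26, Rpl37, Rps9, Rps27l and Rps19bp1, which are not analysed here. Of the 87 genes, 35 belonged to the small and 52 to the large subunit. The symbols of 12 ended in the letter l and a number, as those of many copies or paralogues do (Rps13l1 beside Rps13, for example). They are called copies below, also where the parent gene is no member, as for Rpl37l1. This left 75 genes, 30 small and 45 large, and Rpl3l, a variant of Rpl3, stayed among them.

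Both groups were adult male Sprague-Dawley rats, with 5 rats each. In the TBI group lateral fluid percussion, a fluid pulse against the exposed dura, was given under anaesthesia with an impact of 3.32 atm. Sham rats had the same anaesthesia and surgery with no impact. The methods of the study place the tissue in CA3 and dentate gyrus of the left hippocampus, while the labels name the dorsal hippocampus, and the injured rats were not monitored for seizures by EEG. The labels do not say how rats were split over preparation or sequencing batches.

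A ribosome needs one copy of nearly every one of these proteins, and cells make them in matched amounts. Their mRNAs are among the most abundant of a cell. Most carry a terminal oligopyrimidine (TOP) start, a C followed by a run of C and U at the first bases of the mRNA, through which their translation is raised or held back together under control of the kinase mTORC1. In neurons a part of these mRNAs is carried into axons and dendrites and translated there.

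To show the feature that these genes share at the DNA level, stretches of 30 bases around the annotated start are printed for members on which the results turn and for at least one gene of several functional groups. The stretches are from RefSeq (GRCr8 assembly), 5′ to 3′ on the strand that reads as the mRNA (mRNA strand). The longest run of a C followed by at least 6 further C or T is in capitals.

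Rpl13a (chr1:104748907-104748936, minus strand): cgccaagaCCTCTTCCTTTCCTaggcggct
Rps15 (chr7:10068098-10068127, minus strand): tgacaccgCTTCCTTTTCCCagcagccgcc
Rplp0 (chr12:46718372-46718401, minus strand): gcaccgcaCTTCTCTCgccaggcgtcctca
Rpl5 (chr14:1995218-1995247, minus strand): tccagccaCTCTCTTTCCCacgtcgcttgc
Rps3 (chr1:163195776-163195805, minus strand): gcgagccaCTTCCTTTCCTTTCagcggcgc
Rps26 (chr7:1643384-1643413, minus strand): cgccgggtCCTCTTTCgagtcttggctcca
Rps6 (chr5:106420546-106420575, minus strand): aagtcgggCCTCTTTTTCgtgacgcctcct
Rps27a (chr14:107488887-107488916, minus strand): acgcttggCTCTTCCTTTCCgatccgccat

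The capitals are strings of C and T that differ in length and in their distance from the annotated start. The run began 27 bases before this start in Rps6, 23 in Rps27a, 21 in Rps3, 15 in Rpl13a and 14 in Rpl5. It began 4 bases before the start in Rps15, 3 in Rplp0 and 1 in Rps26. The printed stretches of Rps6 and Rps27a end before the annotated start. Whether these runs lie at the first bases of the mRNA was not tested. Of the 87 members, 69 had an entry in the promoter table, 61 of them genes not named as copies (62 windows) and 8 copies. Within 40 bases before to 20 after the annotated start, 48 of the 62 windows (77.4%) held such a run on the mRNA strand. Of 33469 windows of all promoters, 26.6% held it. On the opposite strand the run was found in 16.1% of the windows of these genes and in 28.1% of all. Of the 8 copies, 3 (37.5%) held it on the mRNA strand. Rps16 and Rpl22l1 had an entry and no such run in this window. At the second transcribed base 80.6% of the windows of ribosomal protein genes had C or T, compared to 53.8% of all promoters.

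**Figure D1:**
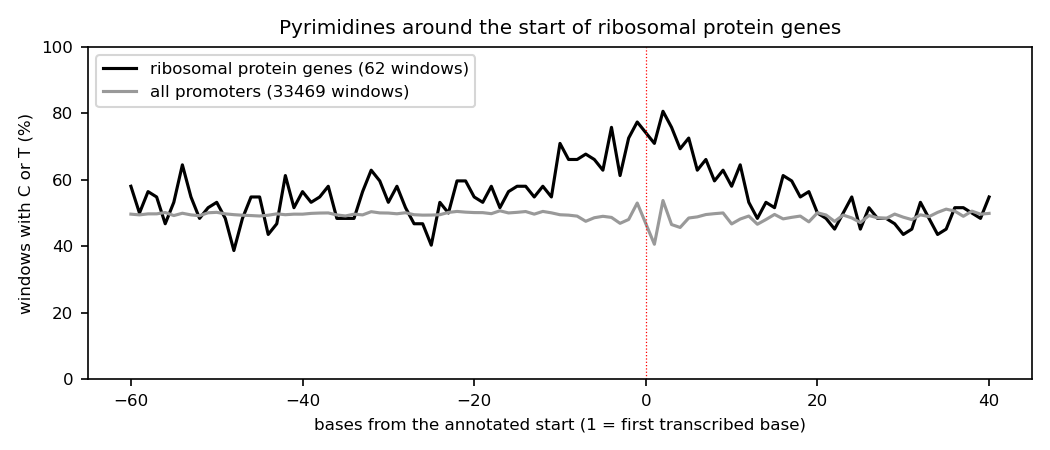
Share of windows with a C or T at each base from 60 before to 40 after the annotated start (x axis, bases; y axis, percent of windows), for 62 windows of ribosomal protein genes not named as copies (black) and 33469 windows of all promoters (grey). The black line leaves the grey line from about 10 bases before the start and reaches 80.6% at the second transcribed base.

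Between 23425817 and 31671838 counts per library fell on RNA records. Ribosomal RNA took 59.0% and 58.5% of them in sham rats 4 and 5, and 12.5% to 26.2% in the other 8 rats, with the lowest share in TBI rat 5. The members had 81360 to 163726 counts per sham rat and 176707 to 236855 counts per TBI rat. These raw counts were lowest in sham rats 4 and 5, where ribosomal RNA took most of the library, so levels are given below as counts per 1000000 (CPM) of a library size adjusted by the trimmed mean method (TMM), in which a few very abundant transcripts have little weight. Scaled by the counts outside ribosomal RNA instead, the members took 0.627% to 0.832% of the counts in sham rats and 0.828% to 0.958% in TBI rats. Markers of neurons, such as Snap25, were present in all rats. In bulk tissue, fewer cells of one type and less RNA per cell cannot be told apart.

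The mRNA level of the ribosomal protein genes was compared between TBI and sham rats first as a whole. The summed level of the 87 genes was 4912, 5340, 5318, 5530 and 5337 CPM in sham rats 1 to 5 and 5237, 5374, 5622, 5587 and 6133 CPM in TBI rats 1 to 5. The groups overlapped, with sham rat 1 lowest and TBI rat 5 highest. Sham rats had a mean of 5287 CPM ± 227 (SD, n = 5) and TBI rats of 5590 CPM ± 342 (SD, n = 5), a ratio of 1.06. The difference of 303 CPM lay between the SDs of the groups. By subunit, sums over the 30 small subunit genes were 1814 CPM ± 86.0 (SD, n = 5) in sham and 1924 CPM ± 99.7 (SD, n = 5) after TBI. Sums over the 45 large subunit genes were 3376 CPM ± 142 (SD, n = 5) and 3564 CPM ± 237 (SD, n = 5). The 12 copies summed to 97.9 CPM ± 3.90 (SD, n = 5) and 102 CPM ± 6.71 (SD, n = 5).

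**Figure D2:**
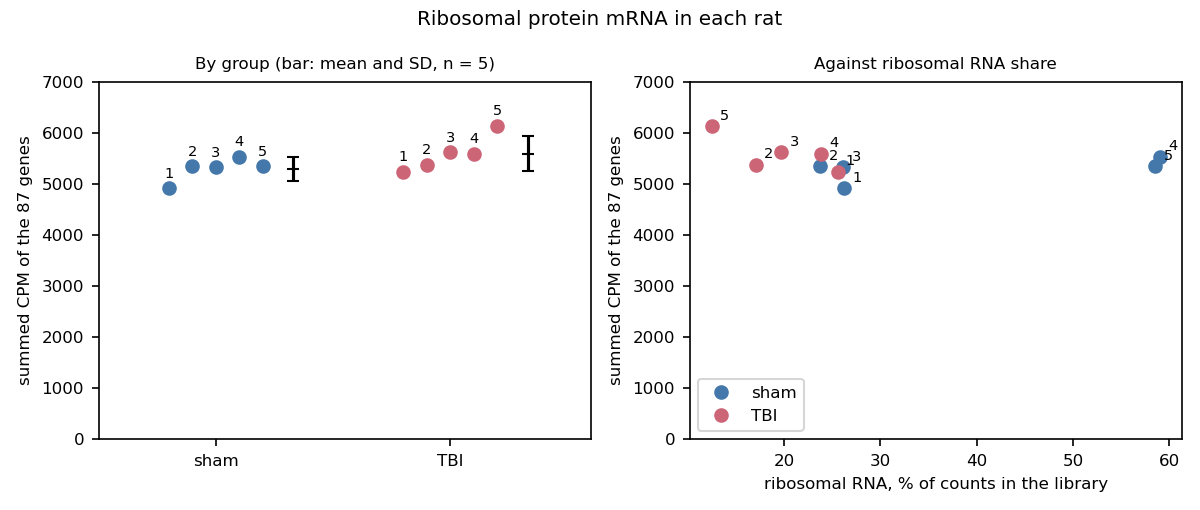
Summed CPM of the 87 genes in each rat (y axis), by group on the left, with mean and SD as black bars and the rat's number above each point, and against the share of ribosomal RNA in the library (x axis, percent of counts) on the right. The groups overlap between 5237 and 5530 CPM, TBI rat 5 has the highest sum and the lowest ribosomal RNA share, and the sham rats with over 58% ribosomal RNA lie among the other rats.

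Gene by gene, 0 of the 87 members had an adjusted p under 0.05 (edgeR, quasi-likelihood F test, Benjamini-Hochberg adjustment over all rows), as did 0% of all rows tested. The smallest such adjusted p of a member in edgeR was 0.555. DESeq2, limma voom and the edgeR exact test also gave 0 members. At an unadjusted p under 0.05 there were 3 members (3.45%), compared to 7.89% of all rows. All 3 were higher in TBI rats, where the share of all rows was 4.89%, and 0 were lower, where it was 3%. The share of members called was thus below that of all rows, as in 17 of the 20 alternatives. It was above that of all rows with total count scaling (28.7% of members, 16.9% of rows), with total counts outside ribosomal RNA (32.2%, 12.9%) and without TBI rat 1 (11.5%, 7.63%).

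Log2 changes (TBI over sham) were small. Their median over the members was 0.05, with the middle of the distribution from 0.00 (25th percentile) to 0.11 (75th percentile), beside a median of -0.01 over all rows. The value was positive for 66 members (75.9%) and negative for 21, and positive for 47.8% of all rows. Among the 75 genes not named as copies 60 (80.0%) were positive, in equal shares in the small (24 of 30) and large subunit (36 of 45), and among the copies 6 of 12. Members are measured in the same 10 rats and move together, so these counts are no independent evidence of a direction. They also rested on single rats: 50 members were positive without sham rat 1 (median 0.01) and 53 without TBI rat 5 (median 0.02).

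The 95% confidence interval of the log2 change lay within 0.5 of no change in both directions for 83 of the 87 members. The exceptions were Rpl37al2, Rpl3l, Rps4y2 and Rpl30l3, with totals of 59, 69, 267 and 242 counts over all rats. The median standard error of the members was 0.09, compared to 0.13 for all rows. With TMM, a change as large as 0.5 on the log2 scale was therefore outside the interval for nearly all members. A change of the size of the median was within it. These are changes relative to the bulk of the rows, and with total count scaling the median of the members was 0.56.

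**Figure D3:**
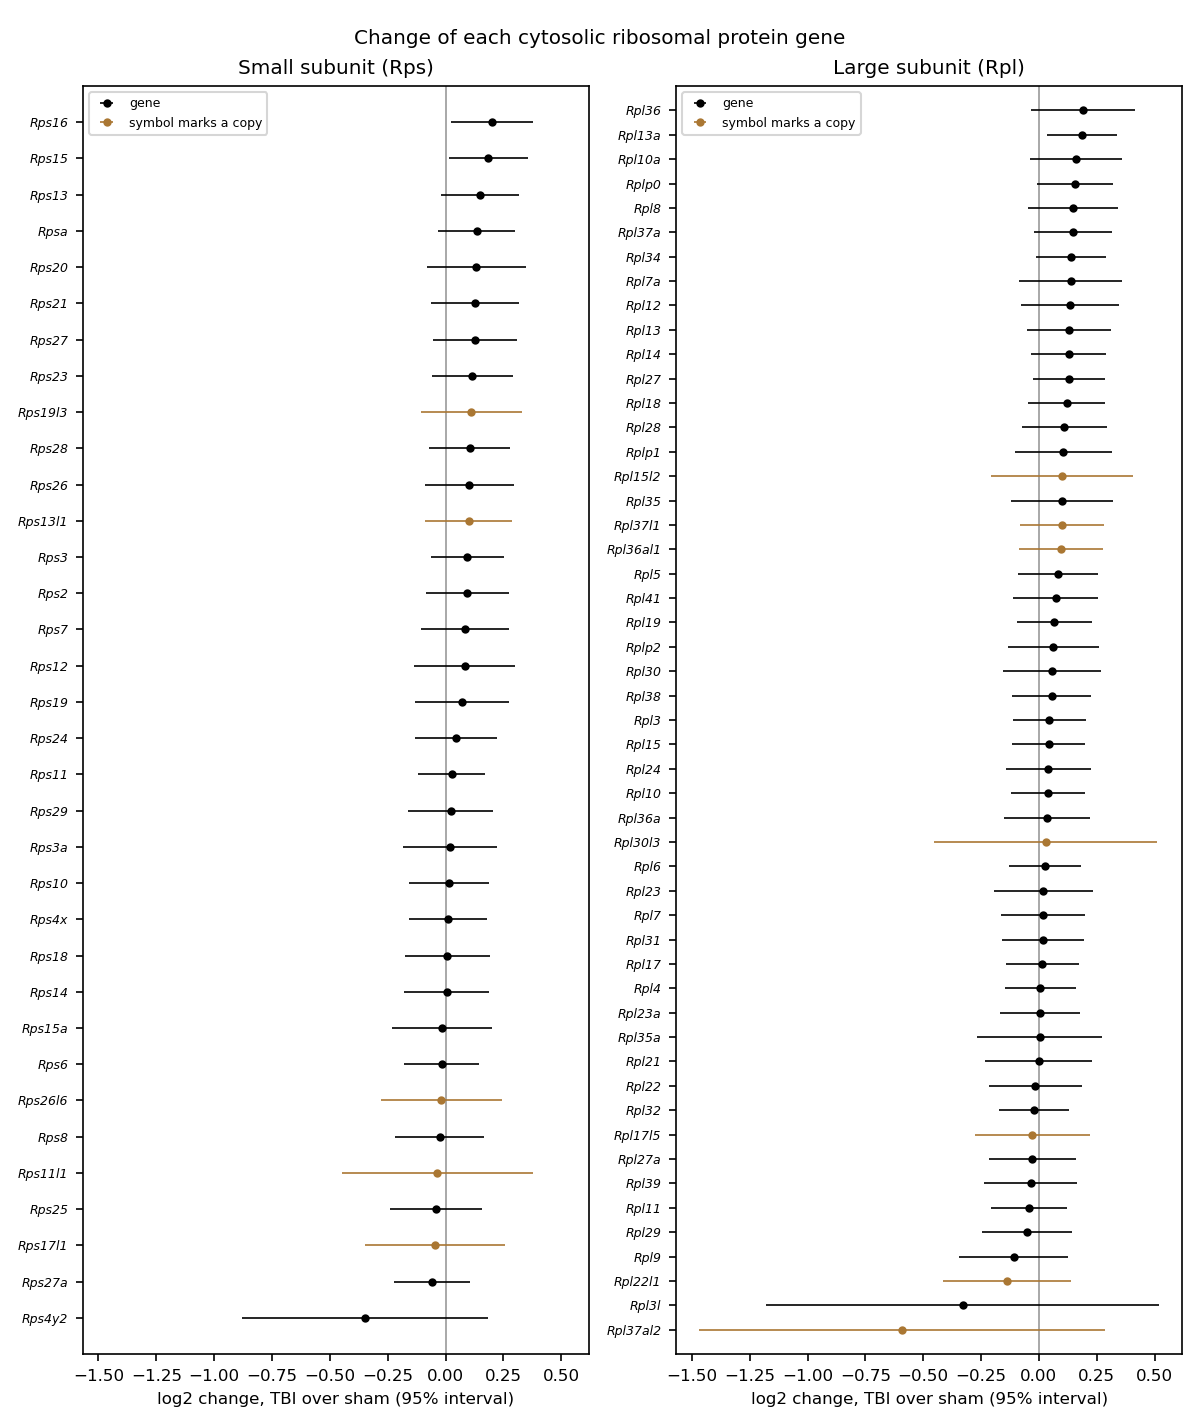
Log2 change, TBI over sham, of 85 of the 87 genes with its 95% interval (x axis), in order of size, for the small subunit on the left and the large subunit on the right. Genes named as copies are brown, intervals of 3 genes (Rps16, Rps15 and Rpl13a) lie above 0, and the wide intervals at the bottom belong to genes with few counts.

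The gene with the smallest p was Rpl13a, a large subunit protein that can leave the ribosome and take part in silencing inflammatory mRNAs in myeloid cells. Its level was 57.8, 59.1, 60.2, 59.8 and 57.7 CPM in sham rats 1 to 5 and 69.5, 63.5, 63.6, 63.2 and 75.3 CPM in TBI rats 1 to 5. Every TBI rat lay above every sham rat, which held for this member alone (1.15% of members, against 0.923% of all rows). The log2 change was 0.19 ± 0.0725 (SE). A two-sided exact permutation test of this gene alone gave p = 0.00794, the smallest value that the 252 splits of the rats can give, beside an edgeR adjusted p of 0.555. The permutation p follows from the lack of overlap and is not adjusted for picking this gene among the 87 members. The unadjusted p of the fit was no longer under 0.05 without TBI rat 5 (log2 change 0.14), with the ribosomal RNA share as a covariate (0.17) and without sham rats 4 and 5 (0.19).

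Rps16, a small subunit protein whose tail reaches towards the decoding site, was at 153, 151, 179, 166 and 136 CPM in sham and 196, 171, 178, 164 and 192 CPM in TBI rats. The groups overlapped, since sham rat 3 exceeded 3 of the TBI rats. The log2 change was 0.20 ± 0.0838 (SE), with p = 0.0556 in the exact permutation test and an edgeR adjusted p of 0.582. The unadjusted p of the fit was over 0.05 without sham rat 2 (log2 change 0.19), sham rat 5 (0.15), TBI rat 1 (0.17) or TBI rat 5 (0.18), without sham rats 4 and 5 together (0.17), and with the ribosomal RNA covariate (0.16).

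Rps15, which lies close to the decoding site and takes part in the export of the small subunit from the nucleus, was at 137, 117, 150, 145 and 143 CPM in sham and 144, 153, 160, 156 and 173 CPM in TBI rats. TBI rat 1 lay within the range of the sham rats, and the others lay above it. The log2 change was 0.18 ± 0.0811 (SE), with p = 0.0238 in the exact permutation test and an edgeR adjusted p of 0.605. The unadjusted p of the fit rose over 0.05 without sham rat 2 (log2 change 0.13), TBI rat 3 (0.18), TBI rat 4 (0.19) or TBI rat 5 (0.15), and with the ribosomal RNA covariate (0.22).

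The members of the ribosomal stalk are Rplp1 and Rplp2, which bind the elongation factors, Rplp0, which anchors them, and Rpl12 at the base. None of the 4 passed an unadjusted p of 0.05. All values were positive, with a median log2 change of 0.12. Rplp0 had the most reads of all members, uncorrected for transcript length, at 334, 324, 384, 358 and 332 CPM in sham and 355, 385, 374, 395 and 422 CPM in TBI rats. Its range in TBI rats began within that of the sham rats. The log2 change was 0.16 ± 0.0779 (SE), with p = 0.0476 in the exact permutation test and an edgeR adjusted p of 0.646. The unadjusted p of the fit was under 0.05 with DESeq2 (log2 change 0.15), with voom (0.15), without sham rat 3 (0.20) and without TBI rat 1 (0.18). It was also under 0.05 with total count scaling (0.66) and with total counts outside ribosomal RNA (0.31). The log2 changes of Rpl12, Rplp1 and Rplp2 were 0.13, 0.11 and 0.06.

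Along the path of the mRNA through the small subunit, 1 of 8 genes passed an unadjusted p of 0.05 (Rps15, above). All 8 values were positive, with a median log2 change of 0.10. Rpsa, which is also known as a laminin receptor, had a log2 change of 0.14 ± 0.0793 (SE), with an exact permutation p = 0.119. Rps3, a protein of the mRNA entry site with a role in DNA repair, was at 179, 202, 205, 208 and 204 CPM in sham and 202, 198, 219, 210 and 236 CPM in TBI rats. Sham rat 1 was the low and TBI rat 5 the high rat, and the log2 change was 0.09 ± 0.0757 (SE). Rps28 and Rps26, both at the mRNA exit, had log2 changes of 0.10 each, Rps2 at the entry had 0.09 and Rps14 had 0.00.

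Rpl5 and Rpl11 form a particle with the 5S ribosomal RNA and, like Rpl23, can bind MDM2 and so stabilise p53 when ribosome assembly is disturbed. None of these 3 genes passed the unadjusted threshold. The log2 changes were 0.08 (95% interval -0.09 to 0.25) for Rpl5, -0.04 (95% interval -0.21 to 0.12) for Rpl11 and 0.02 (95% interval -0.20 to 0.23) for Rpl23. Rpl5 was at 96.3, 123, 126, 113 and 118 CPM in sham and 123, 112, 120, 122 and 132 CPM in TBI rats, so that sham rat 1 alone lay apart from the others.

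Of 5 genes known for signalling or for contacts with particular mRNAs, none passed the unadjusted threshold. Rps6, a substrate of the S6 kinases and a common readout of mTORC1 activity in its phosphorylated form, was at 52.96, 60.9, 50.4, 60.4 and 59.3 CPM in sham and 54.1, 53.2, 54.7, 57.0 and 61.5 CPM in TBI rats. These ranges lay nearly on top of each other, with a log2 change of -0.02 (95% interval -0.18 to 0.15). Rps25, which some internal ribosome entry sites need, had a log2 change of -0.04 and Rpl38, needed for the translation of some Hox mRNAs, 0.05. Rpl10a had 0.16 ± 0.0949 (SE), with an exact permutation p = 0.119. The kinase scaffold Rack1, a ribosomal protein outside the naming rule, had a log2 change of -0.01.

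Rpl17, Rpl35 and Rpl39 lie around the exit of the tunnel through which the new protein leaves, and Rpl41, Rpl29 and Rps29 are among the smallest members. None of these 6 genes passed the unadjusted threshold, and their median log2 change was 0.02. Rpl41 was at 349, 348, 313, 309 and 338 CPM in sham and 289, 335, 353, 355 and 409 CPM in TBI rats. Here both the lowest and the highest value were of TBI rats, and the log2 change was 0.07 (95% interval -0.11 to 0.26). Rpl35 had 0.10, Rps29 0.02, Rpl17 0.01, Rpl39 -0.04 and Rpl29 -0.05.

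Rps27a is made as a fusion with ubiquitin and is a source of ubiquitin for the cell. Its level was 25.4, 32.2, 27.4, 29.0 and 27.9 CPM in sham and 27.5, 25.3, 27.5, 27.4 and 28.5 CPM in TBI rats. The values of the TBI rats lay within those of the sham rats but for TBI rat 2, and the log2 change was -0.06 (95% interval -0.22 to 0.11). Fau, outside the naming rule, encodes a ubiquitin-like protein fused with a small subunit protein. It had a log2 change of 0.24 ± 0.0796 (SE), with p = 0.0159 in the exact permutation test and an edgeR adjusted p of 0.487.

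Rpl3, which reaches into the peptidyl transferase centre, was at 245, 299, 280, 299 and 281 CPM in sham and 303, 286, 295, 273 and 291 CPM in TBI rats. Sham rat 1 was again lowest, the other rats overlapped, and the log2 change was 0.05 (95% interval -0.11 to 0.20).

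Of 4 tested paralogues or variants with a restricted expression, Rpl3l and Rps4y2 were at low levels, and none of the 4 passed the unadjusted threshold. Rpl3l, known from heart and skeletal muscle, was between 0.144 and 0.374 CPM in sham and between 0.106 and 0.388 CPM in TBI rats, while Rpl3 stands above. Rps4y2 was between 0.812 and 1.36 CPM in sham and between 0.464 and 1.17 CPM in TBI rats, with a log2 change of -0.35 (95% interval -0.88 to 0.18), and Rps4x had 0.01 (95% interval -0.16 to 0.18). Rpl22l1, a paralogue of Rpl22 with a protein of its own, was at 11.3, 11.0, 6.79, 9.31 and 8.68 CPM in sham and 9.97, 7.32, 8.54, 7.81 and 9.24 CPM in TBI rats, with a log2 change of -0.14 (95% interval -0.41 to 0.14). Rpl22 had -0.02 (95% interval -0.22 to 0.19). Rpl37al2, with 59 counts in all, had a log2 change of -0.59 (95% interval -1.47 to 0.29) and was the member called lower at an unadjusted p under 0.05 by voom and without TBI rat 1. The other low copies Rps17l1, Rps11l1 and Rpl30l3 had log2 changes of -0.05, -0.04 and 0.03. Many copies are close to their parent genes in sequence, and how reads that fit both were counted is not given in the sources used here, so values of a copy and its parent are uncertain.

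The members varied together from rat to rat. Sham rat 1 was the lowest of the 10 rats for 38 of the 87 genes, and above a gene's mean for 10. TBI rat 5 was the highest for 42 and above the mean for 83. Within the sham group, sham rat 4 was above the mean for 63 genes. The median deviation of the members from their own mean, on the log2 CPM scale, was -0.13 in sham rat 1 and 0.18 in TBI rat 5, and from -0.04 to 0.06 in the other 8 rats, while the median over all rows was from 0.00 to 0.01 in each rat. By mean deviation, TBI rat 5 was also highest for mitochondrial ribosomal proteins (0.14), other TOP mRNAs (0.10), and initiation (0.07), elongation (0.07) and assembly factors (0.05). For the members it was 0.17, and for genes of mTORC1 control, where TBI rat 5 was not highest, 0.002. Sham rat 1 was lowest for the members (-0.13) and other TOP mRNAs (-0.12), and not for the other lists named. Pairs of members had a median Pearson correlation of 0.34 over the 10 rats (3741 pairs, which share libraries and scaling), 0.35 after the group means were removed, when 81.4% of pairs were positive. It was 0.41 among the small subunit genes, 0.39 among the large subunit genes and 0.04 among the copies before removal. Coefficients of variation of the genes not named as copies had a median of 10.6% in sham and 8.09% in TBI rats, compared to 14.0% and 12.4% over all rows in the same range of CPM. This range, from 0.237 to 366 CPM, held 21305 of the 22431 rows, so the comparison is not matched for level. Whether the lower variation goes with higher counts was not tested.

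**Figure D4:**
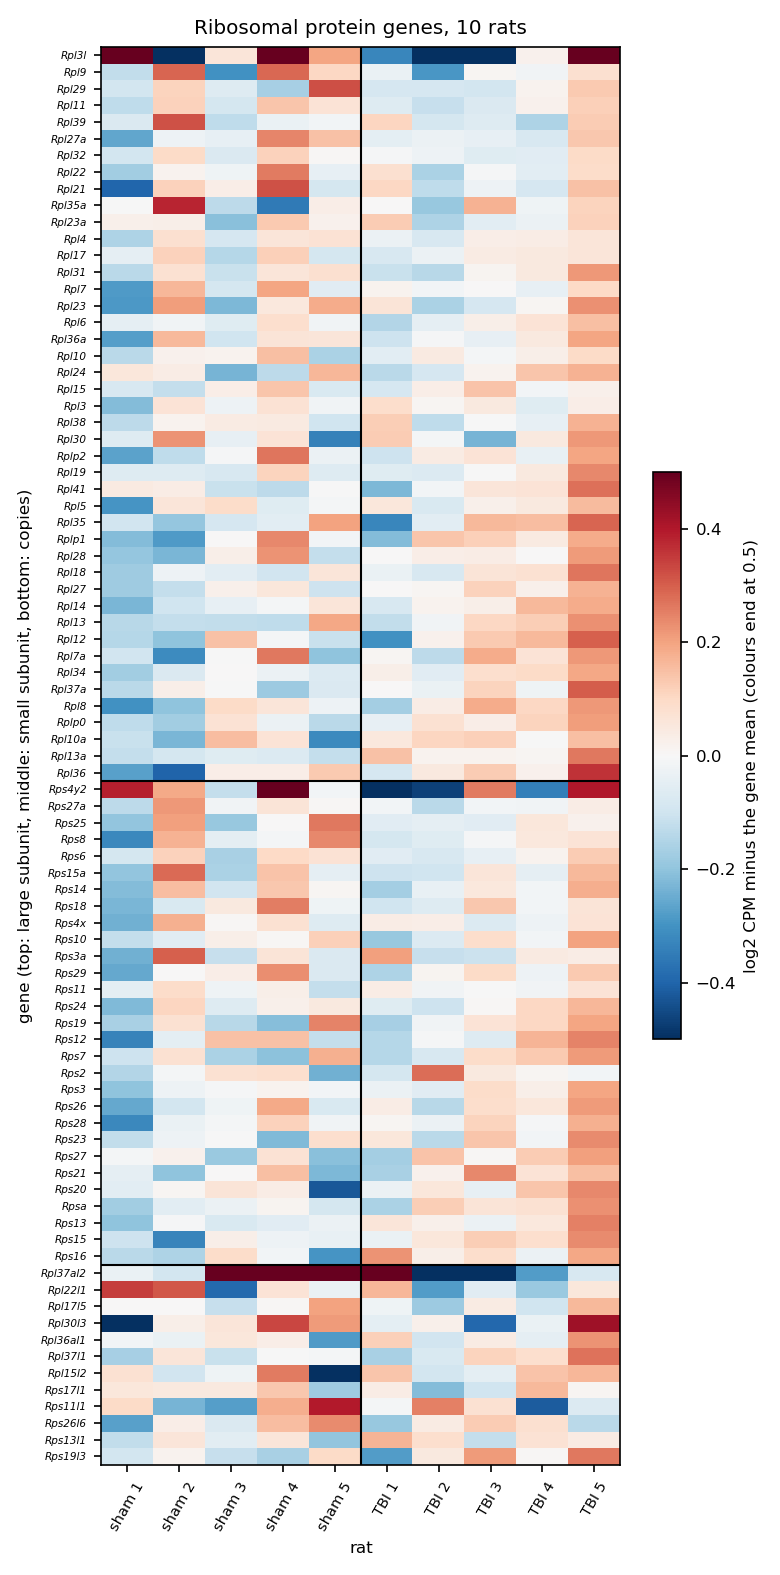
Log2 CPM of 85 of the 87 genes (rows) in each rat (columns) minus the mean of that gene over the 10 rats (blue lower, red higher, colours end at 0.5), with the large subunit on top, the small subunit in the middle and the copies at the bottom. The column of sham rat 1 is mostly blue and that of TBI rat 5 mostly red, in both subunits.

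Sham rat 1 and TBI rat 5 were also those with the lowest summed level of the dentate granule cell markers, at 54.8 and 74.9 CPM, while the other sham rats had 167 to 190 and the other TBI rats 105 to 185 CPM. All 4 of these markers that were tested (Prox1, C1ql2, Calb1 and Lct) had negative log2 changes and none passed the unadjusted threshold. CA1 pyramidal cell markers, which the dissection should leave out, were present at 75.2 to 129 CPM in sham and 63.6 to 392 CPM in TBI rats, with 2 of 4 called higher. Astrocyte markers had 2083 to 3081 CPM in sham and 2303 to 3939 CPM in TBI rats, with 3 of 6 called higher at an unadjusted p under 0.05, beside 4.89% of all rows. Of other marker lists, 2 of 4 genes were called higher for ependyma (9.86 to 19.6 CPM in sham, 18.3 to 30.01 CPM in TBI rats), 2 of 4 for thalamus (9.495 to 15.6 and 12.3 to 17.2 CPM) and 2 of 5 for meninges (8.12 to 21.3 and 14.2 to 23.8 CPM). Log2 changes were positive for 4 of 4 markers of ependyma, 2 of 4 of thalamus and 4 of 5 of meninges, with Lum at -0.95. For blood 1 of 2, for choroid plexus 1 of 5 and for microglia 1 of 6 were called higher. No marker was called lower in any of these lists. For CA3 pyramidal cells 0 of 5, for oligodendrocytes 0 of 6 and for endothelium 0 of 4 were called in either direction. None of the 8 neuron markers was called, and 7 had negative log2 changes (2590 to 3052 CPM in sham, 2333 to 2845 CPM in TBI rats). No tested marker of these lists was at 0 in any rat. The part of cell composition in the values of the ribosomal protein genes was not tested.

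The other genes of protein synthesis were counted in the same way, beside the 7.89% of all rows called at an unadjusted p under 0.05. Of 33 translation initiation factors, 1 was lower at an unadjusted p under 0.05 and 0 were higher, with a median log2 change of -0.02. The called gene was Eif2b4, a subunit of the exchange factor for eIF2, with -0.16 ± 0.0725 (SE) and an exact permutation p = 0.00794, the smallest possible. Of 10 elongation and termination factors, 1 was higher, Eef2k, the kinase that inhibits elongation factor 2 (log2 change 0.17, exact permutation p = 0.0159), and the median was 0.04. Of 18 other mRNAs with a TOP start, 1 was higher (Fau, above) and the median was 0.01, with 9 positive and 9 negative values.

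Of 37 ribosome assembly factors, 1 was higher and 1 lower, and the median log2 change was -0.04. They were Rrs1, needed for the large subunit (0.25, exact permutation p = 0.00794), and Nop58, a core protein of the box C/D particles that methylate ribosomal RNA (-0.23, p = 0.0159). Of 20 genes of mTORC1 and its control of TOP mRNAs, 1 was higher, the mTORC1 inhibitor Ddit4 (0.25, exact permutation p = 0.0397). The median was -0.04. The translational repressor Eif4ebp1 had 0.29 with an exact permutation p = 0.135 and Akt1s1, a further mTORC1 inhibitor, had 0.21 with p = 0.0952. Of 69 mitochondrial ribosomal proteins, which build the separate ribosome of mitochondria, 1 was higher (Mrpl14, 0.24, exact permutation p = 0.0476), and 28 had positive values. None of the genes of these lists had an adjusted p under 0.05 in edgeR.

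**Figure D5:**
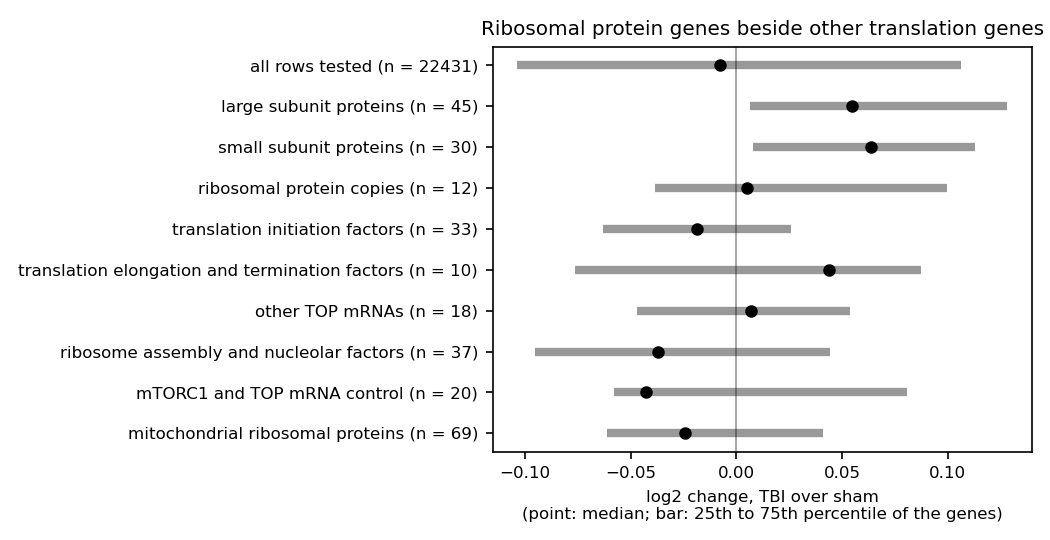
Median log2 change, TBI over sham (points, x axis), with the range from the 25th to the 75th percentile of genes (bars), for all rows tested, the ribosomal protein genes by subunit, their copies and 6 lists of other genes of protein synthesis. Medians lie between -0.04 and 0.06, and all bars overlap the bar of all rows.

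Among the alternatives, the choice of scale moved the count of called members most. With library sizes taken as total counts, ribosomal RNA included, the median log2 change of the members was 0.56 and that of all rows 0.50, and 25 members (28.7%) had an unadjusted p under 0.05, beside 16.9% of all rows. With total counts outside ribosomal RNA the medians were 0.20 and 0.14, and 28 members (32.2%) were called, beside 12.9% of all rows. All of these were higher in TBI rats. Relative to the median of all rows, the members lay 0.06 higher under TMM, 0.06 under total counts and 0.06 under total counts outside ribosomal RNA.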

How the data were processed

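The authors deposited one column of whole-number read counts per rat over RefSeq RNA records, neither normalized nor pooled. Per the methods and labels, oligo(dT)-enriched RNA gave single reads of 36 bases, aligned with BWA to rn4. Treatment of reads that fit several records and strand are not given in the sources used here. Rows were named from a RefSeq gene table (GRCr8, names only), which named 57.7% of the 22431 rows tested. Transcript lengths were not used, so CPM is not compared between genes.

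Groups were compared with edgeR 4.0.16 (robust quasi-likelihood F test, TMM) in R 4.3.3 on rows with a total of at least 44, with Benjamini-Hochberg adjustment over all rows. Intervals use the t distribution with the degrees of freedom of the fit. For the 277 named or listed genes, mean log2 CPM was also compared by a two-sided exact permutation test (252 splits of the 10 rats), and these p-values are not adjusted. Replicate numbers follow sample order and pair no rats. The members and lists were chosen with earlier results of these data known. Named members have an unadjusted p under 0.05, are among the 6 highest or 6 lowest in CPM, or belong to a list of functional groups. Of other lists at most 3 genes by smallest p are named.

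Alternatives were other scalings, DESeq2 1.42.0, limma 3.58.1 (voom with sample weights), the edgeR exact test, no filter, rows summed per symbol, a ribosomal RNA covariate, and leaving out rats. Where neither fit gave an unadjusted p under 0.05, no direction was called and a gene was counted as keeping its result. Per the methods, the tissue of each rat was processed on its own, while batches are not given. The p-values set the group difference against the spread between these samples. The methods give 3 controls for this profiling, and the labels give 5. The study lists genes with an adjusted p under 0.05 (edgeR) in this model, while 0 of the 22431 rows passed it here. What lies behind this difference was not tested. Some genes are not reported here by name, and they stay in the counts and medians.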

Additional observations from a re-analysis of the deposited data

Results flagged for a closer look

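In groups of 5 rats, 3 of 90 sets of values had 1 rat far from the other 4 (a gap over 0.71 of the range), where chance gives about 4.5. The share of counts outside ribosomal RNA taken by the 87 genes was 0.958% in TBI rat 5 and 0.828% to 0.855% in the other TBI rats. Rps3 was at 179 CPM in sham rat 1 and at 202 to 208 CPM in the other sham rats. Rpl39 was at 24.1 CPM in sham rat 2 and at 17.7 to 19.2 CPM in the other sham rats.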

How the results depend on the processing

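The count of members past an adjusted p of 0.05 was 0 in each of the 20 alternatives. The count at an unadjusted p under 0.05 was 3 with the main test (3.45% of members, 7.89% of all rows). It was 25 with total count scaling (28.7%, 16.9%) and 28 with total counts outside ribosomal RNA (32.2%, 12.9%). DESeq2 gave 5 (5.75%, 7.4%), voom 6 (6.90%, 8.22%) and the ribosomal RNA covariate 1 (1.15%, 4.42%). Leaving out 1 rat gave from 0 without TBI rat 5 (0%, 6.51%) to 10 without TBI rat 1 (11.5%, 7.63%). The count was 1 without sham rat 2 (1.15%, 5.19%). It was 5 without sham rat 3 (5.75%, 11.5%) and 5 without sham rat 4 (5.75%, 6.31%). The median log2 change of the members was 0.56 with total count scaling and 0.20 with total counts outside ribosomal RNA. In the other alternatives it was from 0.01 without sham rat 1 to 0.09 without sham rats 4 and 5, beside 0.05 with the main test. These moves were below the SD between rats of the mean member level (0.0819). That SD is larger than the median itself, so staying within it shows no stability. Among 38 named members none called in either fit changed sign, 9 were called in addition with total count scaling and 10 with total counts outside ribosomal RNA, and all 3 called members were lost without TBI rat 5 and with the ribosomal RNA covariate. No paired analysis was possible because the replicate numbers do not link rats of the groups. At 59 to 267 counts in all, a change of 0.5 could not be resolved for Rpl37al2, Rpl3l, Rps4y2 and Rpl30l3.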

Other observations

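Members with a pyrimidine run near the start (48 genes with an entry and no copy name) had a median log2 change of 0.07, with 38 positive values, and the 13 without one had 0.05, with 11 positive values. Of other motifs searched on both strands over 300 bases, from 250 before to 50 after the start, the core letters CCGGAAG of ETS factors were in 29.0% of the 62 windows and in 8.75% of all promoters. AAGATGGCG, a core of YY1 sites, was in 4.84% and 1.73%, and the TATA box TATAAA in 11.3% and 14.2%. A match describes letters only.

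Rows left out by name had values too. Rpl10-ps14 held 5982 counts over the 10 rats and Rps26-ps13 held 360, each with at least 25 counts in every rat.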
